A study of Mus musculus with 18 samples.

Results

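10 genes of the WNT pathway were followed across all 6 groups of a bulk RNA-seq study of mouse aortic smooth muscle cells: the ligand genes Wnt5a, Wnt5b, Wnt4 and Wnt9a, the secreted antagonist genes Sfrp1, Sfrp2, Dkk2 and Dkk3, and the target genes Axin2 and Wisp1. They were selected by gene name, with earlier results of these data known. All 10 were found among the 57180 genes of the table of estimated counts, Wisp1 under its current symbol Ccn4. Axin2 encodes an intracellular protein and Wisp1 a matrix protein that is not a classical WNT antagonist, so these 2 are neither ligands nor antagonists and are described as targets. The cells came from the thoracic aorta of C57BL/6 mice and were cultured. Every group had been transfected, either with a scramble control or with an siRNA against Itgav, the gene of the αV integrin subunit. Each kind of transfected cell was left unstimulated, given TGF-β or given PDGF-BB, with 3 libraries in each of the 6 groups and 18 in all. TGF-β is known for raising contractile and matrix genes in smooth muscle, and PDGF-BB for lowering contractile genes and driving growth and migration. The sources used here do not give doses, times or the siRNA sequence, nor whether the 3 libraries of a group are separate animals or separate cultures. A p-value therefore reflects only how far these libraries scatter, and that scatter may be technical.

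WNT proteins are lipid-modified secreted ligands that bind Frizzled receptors. In the β-catenin branch, Frizzled acts with LRP5 or LRP6, β-catenin escapes destruction and TCF/LEF factors switch on targets such as Axin2, which in turn feeds back to limit the signal. Wnt5a, Wnt5b and, in many settings, Wnt4 are better known for acting through other branches, those of planar polarity, calcium and the co-receptors ROR1, ROR2 and RYK. Secreted frizzled-related proteins (SFRPs) bind WNTs outside the cell, Dkk2 binds LRP5 and LRP6, and Dkk3 is a divergent Dickkopf protein whose action on the pathway is less settled. In arteries the pathway is studied for its part in smooth muscle proliferation, migration, calcification and matrix production.

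The libraries held 17705072 to 21592916 estimated counts. Levels below are CPM, counts scaled to a common library total, after TMM scaling, a correction for differences in library composition, and each mean is of 3 libraries. Itgav itself was at 300, 326 and 323 CPM in the scramble unstimulated libraries and at 14.8, 14.1 and 16.4 CPM after the siRNA. With TGF-β the Itgav means were 524 and 27 CPM, and with PDGF-BB 321 and 22.8 CPM, so each siRNA group was below its control group with no overlap. All 10 smooth muscle markers were detected in every group, with summed means of 2162 CPM in scramble unstimulated cells and 1103 CPM after the siRNA, 6956 and 3360 CPM with TGF-β, and 1021 and 430 CPM with PDGF-BB. Of markers of other cells, 10 adventitial fibroblast markers summed to group means of 838 to 1135 CPM, 10 endothelial markers to 77.9 to 112 CPM, 7 macrophage markers to 10.1 to 26 CPM and 7 mesothelial markers to 27.5 to 206 CPM, with Krt8 at 0 in both unstimulated groups and Adgre1 at 0 with the siRNA and PDGF-BB. Most of the fibroblast sum was Gsn, at group means of 708 to 951 CPM. In scramble unstimulated cells the remaining fibroblast markers ran from 0.21 CPM (Pi16) to 77.6 CPM (Cd34). In bulk samples a smaller number of cells of a type and less RNA per cell cannot be told apart.

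The 10 genes did not move as a block. TGF-β raised Wnt5a, Wnt5b, Wnt9a, Dkk2 and Wisp1 in scramble cells and lowered Wnt4, Sfrp1, Sfrp2 and Dkk3. PDGF-BB raised Dkk2 and Dkk3 and lowered Wnt9a, Sfrp1, Sfrp2 and Wisp1. The Itgav siRNA raised Wnt5b, Sfrp2 and Dkk3 in all 3 media, and lowered Wnt9a, Sfrp1 and Wisp1 in all 3. A gene was called at a Benjamini-Hochberg adjusted p under 0.05 in edgeR's quasi-likelihood test, and these shares have to be read against a background in which a large part of all genes moved.

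For TGF-β in scramble cells, 5 of the 10 genes were called higher and 4 lower, where 23.4% and 24.8% of the 15832 tested genes were. For PDGF-BB in scramble cells, 2 were called higher and 4 lower, against 16.9% and 19.2% of all genes. The siRNA in unstimulated cells gave 4 higher and 4 lower, against 25.9% and 27.5% of all genes, so a count of 8 in 10 stood beside a share of 53.4% overall. With TGF-β the siRNA gave 5 higher and 3 lower, against 24.1% and 24.3%, and with PDGF-BB 5 higher and 4 lower, against 29.4% and 29.9%. Within siRNA cells, TGF-β gave 4 higher and 3 lower (all genes: 27.9% and 29.6%), and PDGF-BB 2 higher and 4 lower (all genes: 17.2% and 19.2%). The sizes differed more than the counts: the median absolute log2 fold change of the 10 genes with TGF-β was 1.54 in scramble and 1.80 in siRNA cells, and that of all tested genes 0.29 and 0.38. With PDGF-BB these medians were 0.49 and 0.46 for the 10 genes and 0.22 in both cases for all genes. Because the 10 genes were chosen with earlier results of these data known, their shares and sizes beside those of all genes are a description and not a test. The 2 stimuli and the siRNA are compared with the same scramble unstimulated libraries, so their values are given side by side and are not independent of each other.

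**Figure D1:**
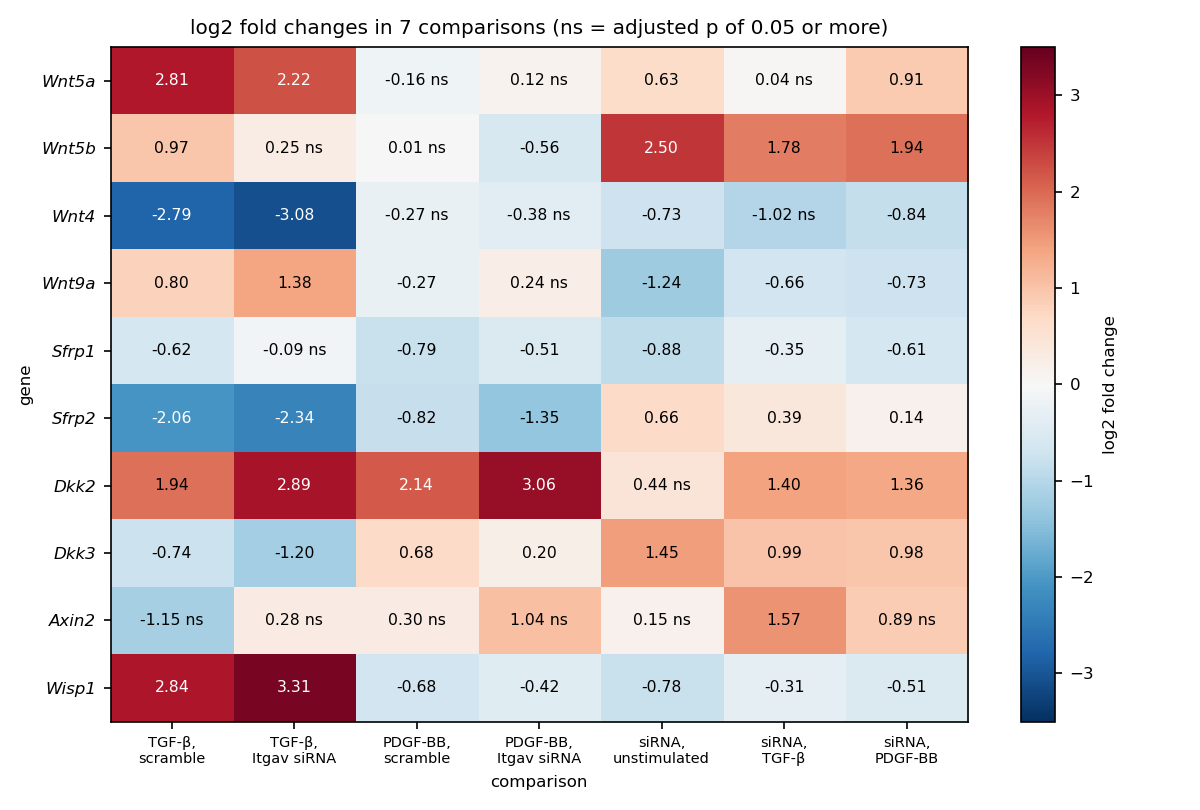
Log2 fold changes of the 10 genes (rows) in 7 comparisons between 2 groups (columns), from edgeR over all 18 libraries; red is higher, blue lower, and ns marks an adjusted p of 0.05 or more. In siRNA cells TGF-β gave values from -3.08 for Wnt4 to 3.31 for Wisp1 and PDGF-BB gave 3.06 for Dkk2, and the siRNA columns hold Wnt5b at 2.50, 1.78 and 1.94.

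Among the 4 ligands, Wnt5a was the one TGF-β raised most. It was at 11.5, 13.2 and 11.7 CPM in scramble unstimulated libraries and at 83.4, 92.7 and 79.2 CPM with TGF-β. The groups were far apart, and the log2 fold change was 2.81 ± 0.0804 (SE; adjusted p = 1.3e-17). With PDGF-BB the libraries read 9.75, 11.1 and 11.7 CPM, which overlapped the unstimulated range (log2 fold change -0.16 ± 0.0955, adjusted p = 0.21). The siRNA brought Wnt5a to 18.8, 18.1 and 19.5 CPM in unstimulated cells, above every scramble library (0.63 ± 0.0892, adjusted p = 3.3e-06), and to 19.9, 21.4 and 19.8 CPM with PDGF-BB (0.91 ± 0.0895, adjusted p = 1.4e-08). With TGF-β the siRNA libraries, at 95.6, 86.3 and 81.4 CPM, overlapped the scramble ones (0.04 ± 0.0676, adjusted p = 0.64). The siRNA effect with TGF-β was thus lower than in unstimulated cells by a tested difference of -0.59 ± 0.112 (adjusted p = 0.00046). In the order of group means, the 2 TGF-β groups led and did not differ beyond their spread, the 2 other siRNA groups followed apart from each other, and the 2 other scramble groups came last with overlapping ranges.

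Wnt9a, a ligand described in joint and blood cell development, moved with TGF-β in the same direction but against Wnt5a with the siRNA. Its scramble libraries were at 15.9, 13.8 and 15.7 CPM unstimulated, 28.4, 25.1 and 25.3 CPM with TGF-β and 12.5, 13.1 and 11.9 CPM with PDGF-BB. With the siRNA they were at 6.49, 6.38 and 6.27 CPM, 16.9, 17.6 and 15.5 CPM, and 6.4, 8.69 and 7.46 CPM. In each medium the 3 siRNA libraries lay below the 3 scramble libraries, by -1.24 ± 0.104 unstimulated, -0.66 ± 0.0904 with TGF-β and -0.73 ± 0.103 with PDGF-BB (largest adjusted p = 2.5e-06). TGF-β raised it by 0.80 ± 0.0901 in scramble and by 1.38 ± 0.104 in siRNA cells (adjusted p = 1.5e-07 and 1.3e-10). The siRNA effect differed between TGF-β and no stimulus by 0.59 ± 0.138 (adjusted p = 0.0034) and between PDGF-BB and no stimulus by 0.51 ± 0.147 (adjusted p = 0.018). That last call was lost without the siRNA PDGF-BB replicate 2 (0.39, adjusted p = 0.082). The fall with PDGF-BB in scramble cells was small, -0.27 ± 0.0949 (adjusted p = 0.027). It was lost when scramble unstimulated replicate 1 (-0.24, adjusted p = 0.093) or 3 (-0.25, 0.097), or scramble PDGF-BB replicate 1 (-0.27, 0.061) or 3 (-0.24, 0.096), was left out.

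Wnt5b, a close relative of Wnt5a, was a low gene whose largest change came with the siRNA. Scramble unstimulated libraries held 14, 18 and 21 counts of it, or 0.642, 0.913 and 1.02 CPM, and siRNA unstimulated libraries 97, 78 and 106 counts, or 5.21, 3.92 and 5.49 CPM. The log2 fold change was 2.50 ± 0.224 (adjusted p = 3.7e-09). With TGF-β the levels were 1.91, 1.56 and 1.56 CPM in scramble and 6.4, 5.13 and 5.83 CPM in siRNA cells (1.78 ± 0.204, adjusted p = 1.9e-07). With PDGF-BB they were 1.06, 0.927 and 0.601 CPM and 2.79, 3.59 and 3.51 CPM (1.94 ± 0.232, adjusted p = 2.7e-07). All 9 siRNA libraries were thus above all 9 scramble libraries. The siRNA effect was not shown to differ between media: the tested differences were -0.72 ± 0.313 for TGF-β (adjusted p = 0.11) and -0.57 ± 0.34 for PDGF-BB (adjusted p = 0.27). TGF-β raised Wnt5b in scramble cells by 0.97 ± 0.258 (adjusted p = 0.0035), and the value in siRNA cells was 0.25 ± 0.178 (adjusted p = 0.24). PDGF-BB lowered it in siRNA cells by -0.56 ± 0.185 (adjusted p = 0.021), a call lost without siRNA unstimulated replicate 1 (-0.52, adjusted p = 0.07) or 3 (-0.47, 0.099) or siRNA PDGF-BB replicate 1 (-0.46, 0.095).

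RefSeq on GRCm38.p6 gives Wnt5b 3 start sites, and the 250 bases before the second are shown because the transcript that starts there, Wnt5b-202, took 56.6% of the gene's estimated counts summed over the 18 libraries. The siRNA groups hold most of those counts. By group its share ran from 49.6% to 85.6%, and in scramble unstimulated cells, with 53 counts in all, Wnt5b-203 was level with it at 50.4% against 49.6%. They are on the minus strand at chr6:119467212-119467461, read 5′ to 3′, and no letters are in capitals because neither motif searched was found.
Wnt5b second start: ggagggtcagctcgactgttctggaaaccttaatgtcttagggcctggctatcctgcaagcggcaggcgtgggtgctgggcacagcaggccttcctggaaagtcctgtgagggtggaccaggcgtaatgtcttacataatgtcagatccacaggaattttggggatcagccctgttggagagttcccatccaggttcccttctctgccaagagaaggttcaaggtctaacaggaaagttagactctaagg
The motifs were a TCF/LEF core, CTTTGNT or ANCAAAG on the other strand, and a core of the SMAD-binding CAGA box, CAGACA or TGTCTG. The first was in 18.6% and the second in 21% of 32851 RefSeq promoter windows of 300 bases (250 before and 50 after a start). Only the third start of Wnt5b had TCF/LEF matches among its 3 windows, 2 of them, beginning 90 and 71 bases before the start, and the transcript of that start, Wnt5b-201, was listed at 0 in all 18 libraries. A match of these letters is a description and not a binding site, and no match says only that the letters are not in the window.

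Wnt4, a ligand with roles in kidney and female reproductive tract development, went down with TGF-β. Its scramble libraries fell from 4.17, 4.31 and 4.16 CPM to 0.638, 0.591 and 0.579 CPM (-2.79 ± 0.314, adjusted p = 1.4e-07). In siRNA cells it went from 2.31, 2.01 and 3.32 CPM to 0.172, 0.221 and 0.481 CPM (-3.08 ± 0.378, adjusted p = 3.2e-07). No TGF-β library reached 1 CPM, and every other library was above that. PDGF-BB libraries were scattered, at 4.95, 2.52 and 3.05 CPM in scramble and 2.54, 1.56 and 1.76 CPM in siRNA cells, with no call against unstimulated cells in either (-0.27 ± 0.24 and -0.38 ± 0.269, adjusted p = 0.42 and 0.29). The siRNA lowered Wnt4 by -0.73 ± 0.249 unstimulated (adjusted p = 0.018) and by -0.84 ± 0.26 with PDGF-BB (adjusted p = 0.0081), where the ranges overlapped. With TGF-β its value was -1.02 ± 0.485 (adjusted p = 0.09), and without the siRNA TGF-β replicate 3 it was -1.59 (adjusted p = 0.031). The unstimulated call was lost without siRNA replicate 1 (-0.66, adjusted p = 0.061) or 2 (-0.57, 0.092), and the PDGF-BB call without scramble PDGF-BB replicate 1 (-0.52, 0.095).

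**Figure D2:**
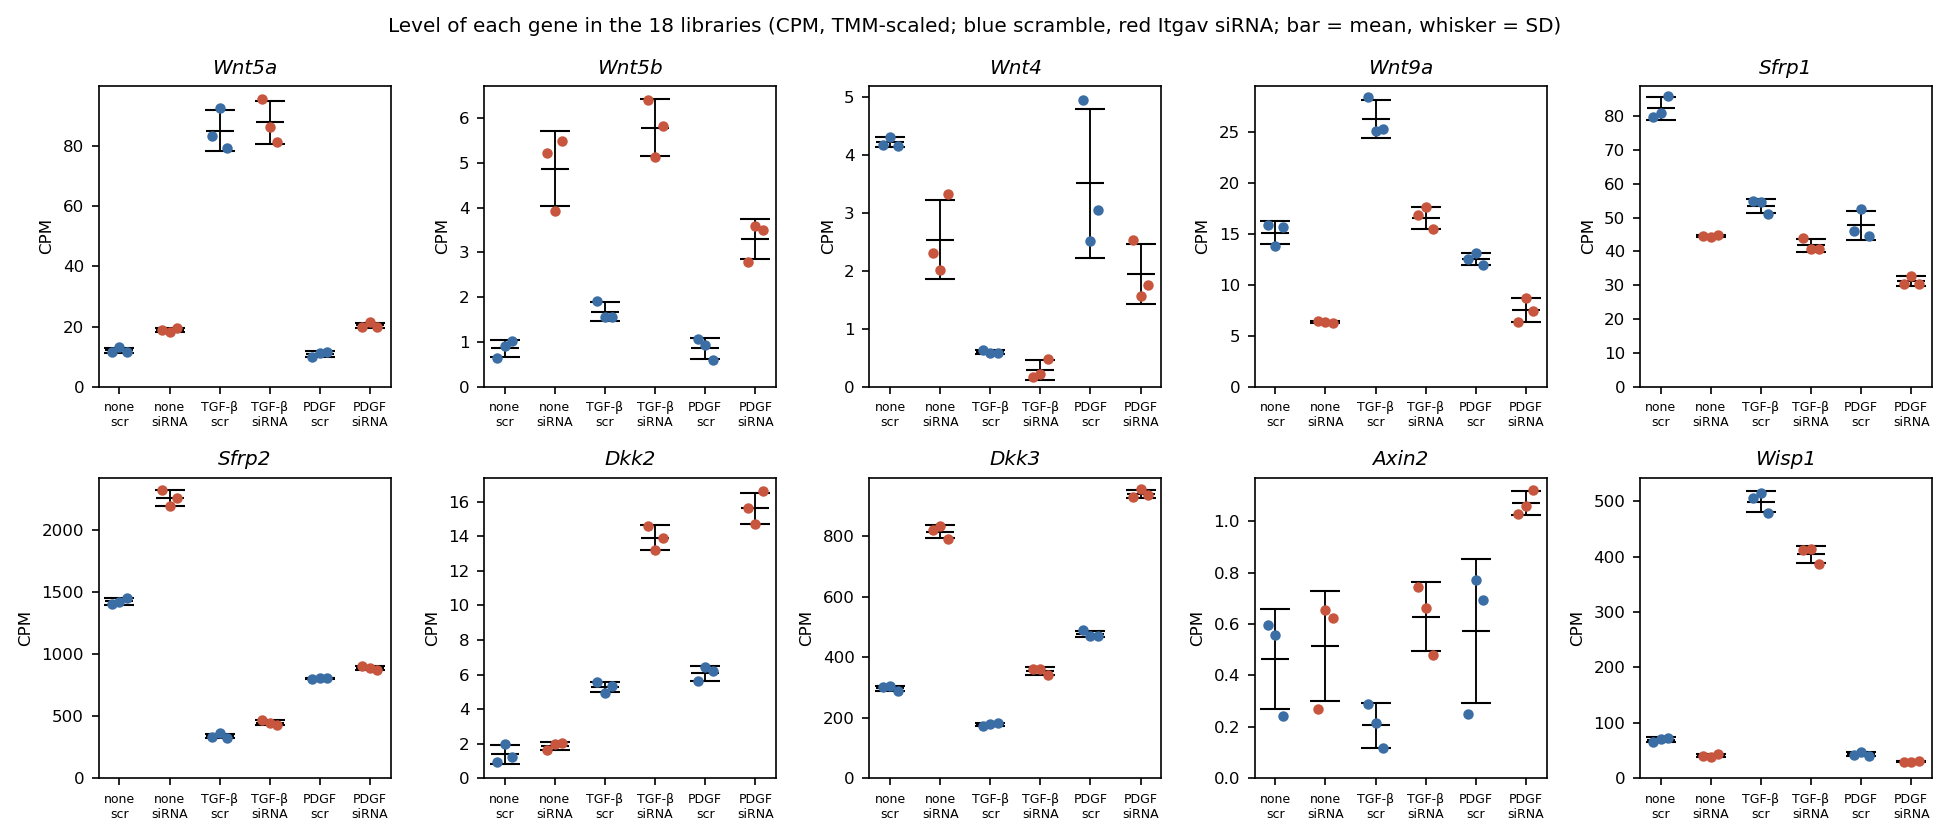
Level of each of the 10 genes (y axis, CPM from 0, a scale of its own in each panel) in the 6 groups (x axis); points are the 3 libraries of a group, bars their mean and whiskers the SD. Wnt5a and Wisp1 are high in the 2 TGF-β groups, Wnt5b is high in the 3 siRNA groups, and Axin2 stays near or under 1 CPM in every library.

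Divided by exon length, the make-up of the ligand transcripts can be compared between genes. Over the 19 WNT ligand genes, the sum in scramble unstimulated cells was 8.27 ± 0.204 CPM per kilobase (SD), of which Wnt9a made up 55.1% ± 3.26 and Wnt5a 18.9% ± 1.83. With TGF-β the sum was 21.4 ± 0.942 CPM per kilobase and Wnt5a led, with 50.8% ± 2.93 against 36.9% ± 2.26 for Wnt9a. After the siRNA in unstimulated cells the sum was 7.87 ± 0.555 CPM per kilobase, close to the scramble value, but Wnt5a at 30.6% ± 1.07 was above Wnt9a at 24.5% ± 1.89. The same order held with the siRNA and PDGF-BB, 33% ± 0.424 for Wnt5a and 28.6% ± 3.64 for Wnt9a, where scramble PDGF-BB cells had 19% ± 2.75 and 51.3% ± 2.45. Wnt5b was also a larger part with the siRNA. In unstimulated cells it went from 3.92% ± 0.856 to 23.3% ± 2.53, where its libraries overlapped those of Wnt9a. With PDGF-BB it went from 4.4% ± 0.995 to 15.7% ± 2.05. Wnt4 went from 12.2% ± 0.528 to 7.67% ± 1.6 with the siRNA in unstimulated cells. These shares are descriptions without a test, they rest on summed exon lengths of an annotation that is not the authors' own, and this and the antagonist sum below use CPM scaled on all genes.

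Of the 15 other ligand genes, 7 passed the low-count filter, and these were low: no group mean was above 5 CPM. TGF-β in scramble cells raised 2 of them and lowered 0 (all genes: 23.4% and 24.8%), with a median log2 change of 0.53. Wnt16 rose from 0.594 to 4.82 CPM (3.01 ± 0.328, adjusted p = 8.9e-08), and Wnt10b from 0.261 to 0.815 CPM (1.63 ± 0.532, adjusted p = 0.015). The siRNA with TGF-β lowered Wnt16 to 1.47 CPM (-1.71 ± 0.294, adjusted p = 4.7e-05) and raised Wnt11, Wnt10a and Wnt7b, and with PDGF-BB it raised Wnt16 from 0.183 to 1.36 CPM (2.87 ± 0.457, adjusted p = 1.3e-05) and Wnt11. The difference of the Wnt16 siRNA effect from that in unstimulated cells was -2.52 ± 0.481 with TGF-β (adjusted p = 0.00047) and 2.05 ± 0.622 with PDGF-BB (adjusted p = 0.025). Wls, which carries WNT proteins to the cell surface, was abundant and rose with TGF-β in scramble cells from 882 to 1210 CPM (0.46 ± 0.0347, adjusted p = 2.5e-10). The siRNA lowered Wls to 648 CPM in unstimulated cells (-0.45 ± 0.0348, adjusted p = 4.1e-10). Porcn, whose enzyme attaches the lipid, was at 1.35 CPM and rose to 2.32 CPM with the siRNA in unstimulated cells (0.78 ± 0.276, adjusted p = 0.021).

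Among the antagonists, Sfrp2 was by far the most abundant and fell with both stimuli. It was at 1405, 1421 and 1454 CPM in scramble unstimulated libraries, at 335, 363 and 329 CPM with TGF-β and at 804, 812 and 808 CPM with PDGF-BB. The falls were -2.06 ± 0.0412 (adjusted p = 3.2e-20) and -0.82 ± 0.0397 (adjusted p = 3.3e-13). With the siRNA the libraries read 2327, 2197 and 2261 CPM unstimulated, 467, 449 and 428 CPM with TGF-β and 906, 888 and 871 CPM with PDGF-BB. All 6 groups stood apart from their neighbours in the order of means. The siRNA effect shrank with the stimuli, from 0.66 ± 0.0394 (adjusted p = 4.2e-12) to 0.39 ± 0.0401 with TGF-β (adjusted p = 3.9e-08) and 0.14 ± 0.0395 with PDGF-BB (adjusted p = 0.0051). The tested differences from unstimulated cells were -0.28 ± 0.0561 (adjusted p = 0.00089) and -0.53 ± 0.0557 (adjusted p = 9.2e-07).

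Sfrp1, a related inhibitor, was lower in every other group than in scramble unstimulated cells, where it was at 79.9, 80.9 and 86.1 CPM. TGF-β libraries were at 54.8, 54.5 and 51 CPM (-0.62 ± 0.0587, adjusted p = 8.8e-09) and PDGF-BB libraries at 46, 52.6 and 44.5 CPM (-0.79 ± 0.0587, adjusted p = 4.8e-10), and these 2 groups overlapped. With the siRNA Sfrp1 was at 44.6, 44.2 and 44.8 CPM unstimulated, 44.1, 40.8 and 40.8 CPM with TGF-β and 30.3, 32.9 and 30.5 CPM with PDGF-BB. The siRNA therefore moved Sfrp1 against Sfrp2: by -0.88 ± 0.0592, -0.35 ± 0.0616 and -0.61 ± 0.0625 in the 3 media (largest adjusted p = 5.7e-05). In siRNA cells the value for TGF-β was -0.09 ± 0.0621 (adjusted p = 0.23). The siRNA effect with TGF-β differed from that in unstimulated cells by 0.53 ± 0.0854 (adjusted p = 6.9e-05). The difference for PDGF-BB, 0.28 ± 0.0861 (adjusted p = 0.029), was lost without scramble unstimulated replicate 3, scramble PDGF-BB replicate 1 or 3, siRNA PDGF-BB replicate 2 or any siRNA unstimulated replicate, with values of 0.23 to 0.28 and adjusted p of 0.056 to 0.1.

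Dkk3 was the second most abundant of the 4 antagonists, and the stimuli moved it in opposite directions. Scramble libraries were at 300, 304 and 287 CPM unstimulated, 173, 179 and 182 CPM with TGF-β (-0.74 ± 0.0384, adjusted p = 3.9e-13) and 488, 470 and 470 CPM with PDGF-BB (0.68 ± 0.0377, adjusted p = 3.1e-12). With the siRNA they were at 820, 832 and 791 CPM, 362, 362 and 340 CPM, and 928, 954 and 934 CPM. Every group stood apart from the next in the order of means, with siRNA PDGF-BB at the top and scramble TGF-β at the bottom. The siRNA effect was 1.45 ± 0.0381 unstimulated, 0.99 ± 0.0385 with TGF-β and 0.98 ± 0.0375 with PDGF-BB (largest adjusted p = 4.6e-15). It was smaller than in unstimulated cells by tested differences of -0.46 ± 0.0536 and -0.48 ± 0.0528 (adjusted p = 1.3e-06 and 1.9e-06).

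Dkk2, an LRP5 and LRP6 antagonist that can act weakly as an agonist in some settings, rose with both stimuli from a low level. Scramble libraries were at 0.917, 1.98 and 1.26 CPM unstimulated, 5.57, 4.95 and 5.32 CPM with TGF-β (1.94 ± 0.179, adjusted p = 6.4e-09) and 5.61, 6.43 and 6.2 CPM with PDGF-BB (2.14 ± 0.173, adjusted p = 1.7e-09). In siRNA cells it was at 1.61, 1.96 and 2.02 CPM unstimulated, 14.6, 13.2 and 13.9 CPM with TGF-β and 15.6, 14.7 and 16.6 CPM with PDGF-BB. Both stimuli raised it there too, by 2.89 ± 0.155 and 3.06 ± 0.153 (adjusted p = 3.2e-13 and 3.6e-13). Without a stimulus the siRNA and scramble ranges overlapped (0.44 ± 0.21, adjusted p = 0.082), while with a stimulus the siRNA libraries were all above the scramble ones, by 1.40 ± 0.134 with TGF-β and 1.36 ± 0.128 with PDGF-BB (adjusted p = 1.3e-08 and 6.6e-09). The siRNA effect differed from that in unstimulated cells by 0.95 ± 0.253 (adjusted p = 0.0083) and 0.92 ± 0.249 (adjusted p = 0.013). Both differences rest on 1 library: without scramble unstimulated replicate 2, the highest of its group, they were 0.61 (adjusted p = 0.11) and 0.57 (adjusted p = 0.16), and the siRNA effect in unstimulated cells became 0.78 (adjusted p = 0.0039).

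The bases before the starts of Sfrp2 and Dkk2 are shown because these 2 antagonist genes moved in opposite directions with both stimuli. Both lie on the plus strand of GRCm38.p6 (RefSeq), Sfrp2 at chr3:83766071-83766320 and Dkk2 at chr3:132085042-132085291, read 5′ to 3′, with capitals for the CAGA box core.
Sfrp2: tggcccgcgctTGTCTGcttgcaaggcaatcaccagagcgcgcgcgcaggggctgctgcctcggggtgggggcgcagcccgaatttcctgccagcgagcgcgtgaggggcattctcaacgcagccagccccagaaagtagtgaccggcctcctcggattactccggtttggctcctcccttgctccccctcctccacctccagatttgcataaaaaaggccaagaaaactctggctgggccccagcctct
Dkk2: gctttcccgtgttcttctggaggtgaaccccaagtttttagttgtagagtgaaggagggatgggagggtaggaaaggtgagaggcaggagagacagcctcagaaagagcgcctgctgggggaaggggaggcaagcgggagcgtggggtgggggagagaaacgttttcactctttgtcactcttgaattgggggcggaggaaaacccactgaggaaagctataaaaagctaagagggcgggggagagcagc
The Sfrp2 window had 1 match to the CAGA box core, on the opposite strand and beginning 239 bases before the start, and Dkk2 had none. Neither had the TCF/LEF core.

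Per kilobase of exons, the 11 antagonist genes of the SFRP, DKK, WIF and sclerostin families summed to 804 ± 10.3 CPM in scramble unstimulated cells (SD). The sum was 1340 ± 34.4 after the siRNA, 261 ± 8.87 with TGF-β and 356 ± 14.5 with both, and 555 ± 2.81 with PDGF-BB and 726 ± 8.47 with PDGF-BB and the siRNA, so each siRNA group was above its control group. Sfrp2 made up 82.8% ± 0.591 of the sum in scramble unstimulated cells and Dkk3 11.1% ± 0.42. In siRNA PDGF-BB cells Sfrp2 was at 56.4% ± 0.631 and Dkk3 at 38.2% ± 0.599. Between the 2 PDGF-BB groups, Dkk3 went from 142 CPM per kilobase in scramble to 277 in siRNA cells, and Sfrp2 from 376 to 410. In scramble TGF-β cells Frzb, another frizzled-related antagonist, reached 10.3% and Sfrp1 4.69% ± 0.19, the highest share of each.

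**Figure D3:**
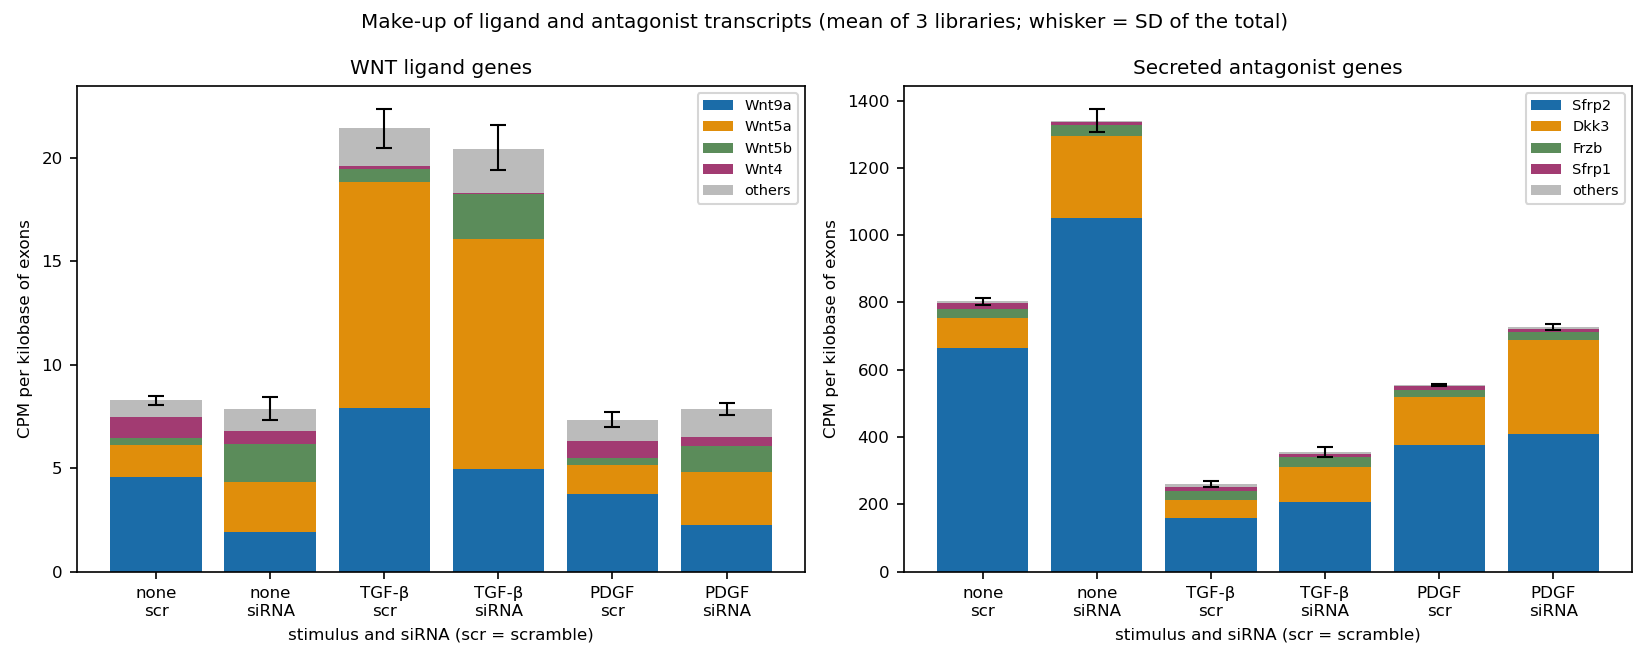
Summed level of WNT ligand genes (left) and of secreted antagonist genes (right) in CPM per kilobase of exons, as group means of 3 libraries stacked by gene; whiskers are the SD of the sum. The ligand sum is highest in the 2 TGF-β groups, at 21.4 and 20.5, where the antagonist sum is lowest, at 261 and 356.

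Of the 11 other antagonist genes listed, 6 were tested, and TGF-β in scramble cells raised 2 and lowered 1 (all genes: 23.4% and 24.8%). Igfbp4, a binding protein that can also block WNT receptors, fell from 42 to 8.07 CPM (-2.38 ± 0.0949, adjusted p = 3.7e-15). Sost, which encodes sclerostin, rose from 0.203 to 5.52 CPM (4.69 ± 0.485, adjusted p = 2.3e-07) and was at 0.68 CPM with TGF-β and the siRNA (-3.01 ± 0.415, adjusted p = 8.3e-06). Sfrp4 fell with the siRNA in all 3 media, from 15.2 to 6.97, 20.9 to 7.1 and 12.4 to 3.74 CPM (largest adjusted p = 1.5e-07). The siRNA thus lowered Sfrp1 and Sfrp4 and raised Sfrp2 in every medium.

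Axin2, the textbook readout of β-catenin signalling, was scarce, with 2 to 23 counts per library. Scramble libraries were at 0.596, 0.558 and 0.242 CPM unstimulated, 0.29, 0.215 and 0.116 CPM with TGF-β and 0.252, 0.772 and 0.694 CPM with PDGF-BB. With the siRNA they were at 0.268, 0.653 and 0.622 CPM, 0.743, 0.662 and 0.481 CPM, and 1.03, 1.06 and 1.12 CPM. The siRNA PDGF-BB libraries were the highest of all 18, apart from every other group, and the other neighbours in the order of means overlapped. Of the 7 comparisons between 2 groups only the siRNA with TGF-β was called, 1.57 ± 0.539 (adjusted p = 0.02), and that call was lost without scramble TGF-β replicate 2 (1.60, adjusted p = 0.051) or 3 (1.29, 0.089) or siRNA TGF-β replicate 1 (1.43, 0.066). TGF-β in scramble cells gave -1.15 ± 0.554 (adjusted p = 0.095), and -1.45 (adjusted p = 0.045) without scramble unstimulated replicate 3. PDGF-BB in siRNA cells gave 1.04 ± 0.42 (adjusted p = 0.059), and 1.05 (adjusted p = 0.036) in a fit of only those 2 groups. With so few counts the standard errors were 0.411 to 0.554 on the log2 scale. At this depth even the value of -1.15 was not called with all libraries.

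The 250 bases before the Axin2 start are shown as those of the pathway's standard target, on the plus strand at chr11:108920099-108920348 of GRCm38.p6 (RefSeq), read 5′ to 3′. Neither motif was found in them, so there are no capitals.
Axin2: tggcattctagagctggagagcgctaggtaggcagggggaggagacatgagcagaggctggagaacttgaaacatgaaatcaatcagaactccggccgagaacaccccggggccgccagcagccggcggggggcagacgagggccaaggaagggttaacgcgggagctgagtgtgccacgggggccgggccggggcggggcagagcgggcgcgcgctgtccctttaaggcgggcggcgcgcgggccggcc

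Wisp1, a matrix-associated CCN protein named for its induction by WNT, followed TGF-β closely. Scramble libraries rose from 65.5, 71 and 73 CPM to 505, 515 and 478 CPM (2.84 ± 0.0577, adjusted p = 4e-20), and siRNA libraries from 40.5, 38.3 and 43.5 CPM to 412, 413 and 386 CPM (3.31 ± 0.0604, adjusted p = 2.1e-21). PDGF-BB lowered it, to 42.6, 47 and 40.8 CPM in scramble (-0.68 ± 0.0598, adjusted p = 6.1e-09) and 29.7, 30 and 32 CPM in siRNA cells (-0.42 ± 0.0641, adjusted p = 2e-05). In each medium the siRNA libraries were below the scramble libraries, by -0.78 ± 0.0603, -0.31 ± 0.0525 and -0.51 ± 0.0636 (largest adjusted p = 4.4e-05). So the 2 target genes were not called alike: with TGF-β the siRNA gave a positive value for Axin2 and a negative one for Wisp1. The Axin2 value rests on few counts, and its call was lost without 1 of several libraries, as given above. The siRNA effect on Wisp1 differed from that in unstimulated cells by 0.47 ± 0.0799 with TGF-β (adjusted p = 0.00013). The difference of 0.27 ± 0.0877 with PDGF-BB (adjusted p = 0.037) was lost in a fit of only the groups compared (0.27, adjusted p = 0.061) and without scramble unstimulated replicate 2 or 3, siRNA unstimulated replicate 1 or 2, scramble PDGF-BB replicate 1 or 3, or siRNA PDGF-BB replicate 2 or 3, with values of 0.22 to 0.28 and adjusted p of 0.061 to 0.11.

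**Figure D4:**
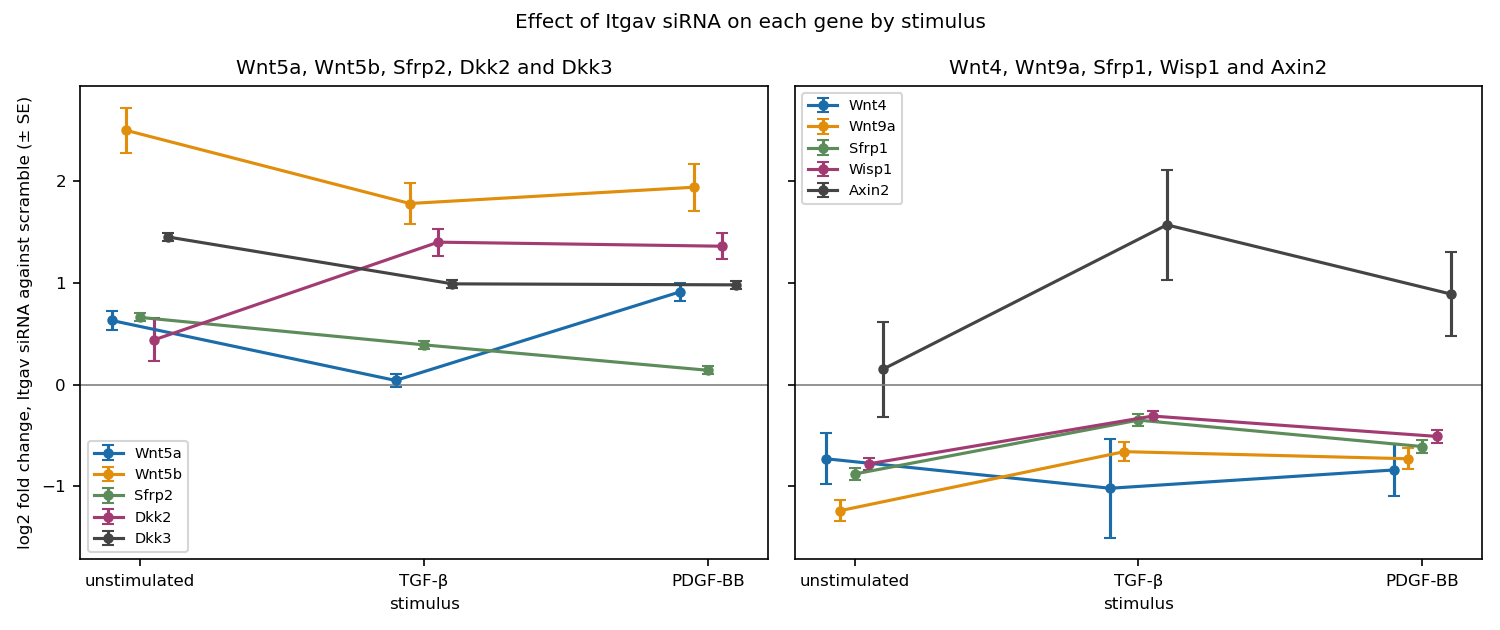
Log2 fold change of each gene with Itgav siRNA against scramble (y axis, ± SE) in the 3 media (x axis), from edgeR. Wnt5a is at 0.63, 0.04 and 0.91 and Dkk2 at 0.44, 1.40 and 1.36. Wnt4, Wnt9a, Sfrp1 and Wisp1 are below 0 in all 3 media, though Wnt4 with TGF-β (-1.02) was not called.

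Over the 10 genes, the siRNA effect with TGF-β differed from that in unstimulated cells towards higher values for 4 (Wnt9a, Sfrp1, Dkk2 and Wisp1) and towards lower values for 3 (Wnt5a, Sfrp2 and Dkk3), where 12.2% and 11% of all genes did. With PDGF-BB it was 4 (the same 4 genes) and 2 (Sfrp2 and Dkk3), against 9.51% and 9.32% of all genes. The count of 4 for PDGF-BB was 1 without siRNA PDGF-BB replicate 2, and 2 without scramble unstimulated replicate 2 or 3, siRNA unstimulated replicate 1 or 2, or scramble PDGF-BB replicate 1 or 3, each left out singly. For Wnt5a, Wnt9a, Sfrp1, Sfrp2, Dkk3 and Wisp1 the TGF-β differences had the sign opposite to the siRNA effect in unstimulated cells, so the effect was smaller in size with TGF-β. The PDGF-BB differences of Wnt9a, Sfrp1, Sfrp2, Dkk3 and Wisp1 had that sign too, but only the calls of Sfrp2 and Dkk3 held without each library in turn. That of Wnt5a did not have it and was not called (0.28, adjusted p = 0.13). All these differences share the 6 unstimulated libraries.

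Other gene groups moved with the siRNA too. All 23 measured interferon response genes rose with it in each medium, with summed means going from 530 to 9525 CPM unstimulated, from 238 to 1371 CPM with TGF-β and from 330 to 7096 CPM with PDGF-BB. Of the 10 smooth muscle markers, the siRNA lowered 7, 10 and 8 and raised 1, 0 and 1 in unstimulated, TGF-β and PDGF-BB cells, and of the 10 adventitial fibroblast markers it raised 7, 3 and 6 and lowered 1, 2 and 1. Of all tested genes it raised 25.9%, 24.1% and 29.4% and lowered 27.5%, 24.3% and 29.9%. The summed mesothelial markers went from 160 to 92.1, from 63.6 to 27.5 and from 206 to 84.9 CPM. The part of these genes in the WNT gene values was not tested. With 1 siRNA group per medium, effects of losing Itgav and effects of this siRNA on other transcripts cannot be told apart.

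In the rest of the pathway, receptors changed in both directions with TGF-β, while with PDGF-BB most of those called were lower. Of 20 receptor and co-receptor genes listed, 18 were tested. TGF-β in scramble cells raised 6 and lowered 6, and PDGF-BB raised 1 and lowered 13, with a median log2 change of -0.39. Of all tested genes TGF-β raised 23.4% and lowered 24.8%, and PDGF-BB raised 16.9% and lowered 19.2%. The Frizzled gene Fzd6 rose with TGF-β from 39.8 to 133 CPM (1.74 ± 0.0755, adjusted p = 1.6e-14) and Fzd1 from 34.8 to 67.5 CPM (0.96 ± 0.074, adjusted p = 3.3e-10), while Fzd7 fell from 78.8 to 44.7 CPM (-0.82 ± 0.0507, adjusted p = 7.9e-12). Fzd1 rose further with the siRNA and TGF-β, to 224 CPM (1.73 ± 0.0689, adjusted p = 7.4e-15). Ror1, a receptor for Wnt5a, rose with the siRNA in unstimulated cells from 15.5 to 39.8 CPM (1.36 ± 0.105, adjusted p = 3.6e-10) and Fzd8 fell from 88.8 to 43.6 CPM (-1.03 ± 0.0547, adjusted p = 7e-13). Gpc4, a proteoglycan co-receptor, fell with PDGF-BB from 257 to 137 CPM (-0.91 ± 0.0445, adjusted p = 3.9e-13).

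R-spondins strengthen WNT signals through LGR receptors and the ubiquitin ligases ZNRF3 and RNF43, which otherwise remove Frizzled receptors. Of 9 genes of this group, 6 were tested, and the siRNA raised 3, 4 and 3 of them in unstimulated, TGF-β and PDGF-BB cells and lowered 0 in each. Of all tested genes it raised 25.9%, 24.1% and 29.4% and lowered 27.5%, 24.3% and 29.9%. With TGF-β, Lgr6 rose from 3.68 to 33.7 CPM (3.19 ± 0.13, adjusted p = 1e-14) and Rspo3 from 7.99 to 31.6 CPM (1.99 ± 0.144, adjusted p = 1.4e-10). Znrf3 was among the genes raised, from 11.1 to 15.8 CPM (0.50 ± 0.107, adjusted p = 0.00048). The effects on Lgr6 and Rspo3 were larger than in unstimulated cells, by 3.08 ± 0.203 for Lgr6 and 1.43 ± 0.207 for Rspo3 (adjusted p = 3.5e-10 and 2.1e-05). PDGF-BB in scramble cells raised 0 and lowered 4 of the 6 (all genes: 16.9% and 19.2%), among them Rspo3, from 8.69 to 2.73 CPM (-1.67 ± 0.183, adjusted p = 2.1e-07).

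Inside the cell, Ctnnb1, the β-catenin gene, rose with the siRNA in all 3 media, from 622 to 779, from 847 to 1352 and from 597 to 920 CPM (0.32 ± 0.0351, 0.67 ± 0.0351 and 0.62 ± 0.0352, largest adjusted p = 7.8e-08). Of the 13 genes of β-catenin and its destruction complex, all tested, the siRNA raised 4, 5 and 5 and lowered 3, 5 and 4 in the same order. The background for these and the siRNA counts below was 25.9%, 24.1% and 29.4% of all tested genes raised. The shares lowered were 27.5%, 24.3% and 29.9%. Of 9 tested genes of the TCF/LEF complex the siRNA lowered 3, 5 and 5 and raised 3, 1 and 2, and Tcf7l2 was lower in all 3, at 29.5 against 37.9, 20.8 against 34.8 and 17.1 against 22.5 CPM (largest adjusted p = 1.1e-05). Among 11 tested target and feedback genes other than Axin2 and Wisp1, TGF-β in scramble cells raised 2 and lowered 6, with a median log2 change of -0.67. Of all tested genes TGF-β raised 23.4% and lowered 24.8% in these cells. Ccnd1, which encodes cyclin D1, fell with TGF-β from 2329 to 848 CPM (-1.46 ± 0.0358, adjusted p = 8.9e-19) and rose with PDGF-BB to 3764 CPM (0.69 ± 0.0351, adjusted p = 7.2e-13). Nkd1, a feedback inhibitor, fell with TGF-β from 8.12 to 3.06 CPM (-1.40 ± 0.164, adjusted p = 2.5e-07). With PDGF-BB Nkd1 fell as well, to 2.71 CPM (-1.59 ± 0.164, adjusted p = 8.8e-08). Cd44, of the same list, rose with TGF-β from 158 to 254 CPM (0.69 ± 0.042, adjusted p = 5.7e-12). The siRNA effect on the targets had no common direction: it raised 3, 4 and 3 and lowered 2, 2 and 3 in the 3 media. In the planar polarity and calcium branch 14 genes were tested, TGF-β in scramble cells raised 2 and lowered 6, and Daam2, a formin of that branch, fell from 31.9 to 7.38 CPM (-2.11 ± 0.0948, adjusted p = 3e-14).

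The genes whose group means followed those of a WNT gene most closely were ranked among 10471 genes by the root mean square difference of centred log2 means over the 6 groups. For Wnt5a they were Creb3l2, Col5a2 and Adam12, with differences of 0.26, 0.28 and 0.29. For Wisp1 they were Il6, Fam210b and Col11a1, with 0.22, 0.23 and 0.23, and for Sfrp2 Dcn, Heg1 and Serping1, with 0.27, 0.28 and 0.31. Dkk3 was nearest to Gramd4, Zfp503 and Lrrn4cl (0.13, 0.14 and 0.18), Wnt9a to Tmtc4, Zdhhc16 and Iars (0.09, 0.12 and 0.12), and Sfrp1 to Ift43, Pim3 and Pde3b (0.13, 0.13 and 0.14). Dkk2 had no near match, the closest being Gal3st3, Prkg2 and Edil3 at 0.46, 0.48 and 0.48. Wnt5b, Wnt4 and Axin2 had mean levels under 5 CPM and were not ranked. These distances describe 6 group means and carry no test.

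The counting bears on a few of these genes. The sources used here do not say if it used the strand, and 3 of the 10 genes share exon bases with an antisense gene: Wnt5a 358 with Gm2670, Sfrp2 347 with Gm26771 and Axin2 209 with Gm11670. Those antisense genes had mean counts of 4.33, 12.3 and 0 per library, while Wnt5a had at least 193 and Sfrp2 at least 5680 counts. Estimates that were not whole numbers occurred for Sfrp2 in 17 libraries, for Wnt4 in 9 and for Sfrp1 in 1. At the transcript level Wnt5a was split between Wnt5a-201 and Wnt5a-202, with 53.5% and 45.5% of its counts summed over all libraries, most of them from the TGF-β groups. In 3 of the 6 groups Wnt5a-202 had the larger share: 52.7% against 46% in scramble unstimulated, 52.5% against 45% in scramble PDGF-BB and 53.1% against 41.9% in siRNA PDGF-BB cells. In GENCODE M21 coordinates (mm10) Wnt5a lies at chr14:28504750-28527448, Wnt9a at chr11:59306928-59333552, Sfrp1 at chr8:23411502-23449632, Dkk3 at chr7:112116017-112159057 and Wisp1 at chr15:66891320-66923201, all protein-coding genes.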

How the data were processed

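HISAT2 2.2.1, StringTie 2.1.6 and the mm10 build are named in the submitters' processing notes. What the authors deposited are estimated counts of 57180 genes and 149132 transcripts in 18 libraries, with totals of 17705072 to 21592916. Of the values above 0, 76.2% were whole, and all were rounded here. The members and the gene lists were chosen with earlier results of these data known, and the lists were written from general knowledge.

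A single edgeR 4.0.16 model covered the 18 libraries, using TMM factors, 1 mean per group, quasi-likelihood tests and Benjamini-Hochberg adjustment over the 15832 genes kept by filterByExpr (minimum count 10). All 10 members were kept. Each SE is the log2 fold change divided by the square root of F. The closest replicates still differed, with a ratio of chi-square to degrees of freedom of 2.23, and none were merged. CPM use TMM-scaled totals of tested genes, and for markers and exon-length sums those of all genes. The text names the members, Itgav, up to 4 called genes of each list per comparison, from which a selection is described, and the 3 genes most alike in pattern. Tiki1, Tiki2 and 1 interferon gene were not found by symbol. Exon lengths and positions are from GENCODE M21, and promoter sequences from RefSeq were held for 6 members. The fit was tested on simulated data.

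Same-numbered libraries deviated together with correlations of -0.19 to 0.39 over 33 pairs. All 3 exceeded 0.1 for PDGF-BB in scramble cells (0.36, 0.12 and 0.2) and for the siRNA with PDGF-BB (0.39, 0.12 and 0.23). Even there, scramble PDGF-BB replicate 2 correlated best with scramble unstimulated replicate 3, and siRNA PDGF-BB replicate 3 with scramble PDGF-BB replicate 2. Whether the numbers pair the libraries is thus not settled, and the labels do not say. Alternatives were DESeq2 size factors, DESeq2 1.42.0 itself, no filter, a mean of at least 1 CPM, only the groups compared, a replicate block, and leaving out each library. R 4.3.3, limma 3.58.1, Python 3.11.15, pandas 2.3.3, numpy 2.4.6 and matplotlib 3.10.9 were used.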

Additional observations from a re-analysis of the deposited data

Results flagged for a closer look

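The siRNA effect differed between media, by a test of the difference in edgeR, for 7 of the 10 genes with TGF-β, against 23.2% of all tested genes, and for 6 with PDGF-BB, against 18.8%. Because the 10 genes were chosen with earlier results of these data known, these shares are a description. With TGF-β, the log2 effect against that in unstimulated cells was higher by 0.59 for Wnt9a, 0.53 for Sfrp1, 0.95 for Dkk2 and 0.47 for Wisp1, and the difference was -0.59 for Wnt5a, -0.28 for Sfrp2 and -0.46 for Dkk3. With PDGF-BB it was higher by 0.51 for Wnt9a, 0.28 for Sfrp1, 0.92 for Dkk2 and 0.27 for Wisp1, and the difference was -0.53 for Sfrp2 and -0.48 for Dkk3. Both Dkk2 differences missed the threshold without scramble unstimulated replicate 2, and those of Sfrp1, Wisp1 and Wnt9a with PDGF-BB missed it without 1 of several libraries, named beside each value above.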

How the results depend on the processing

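Under the 7 other settings, 613 of 617 values of single genes kept their direction and their side of the threshold, and all 189 counts stayed within 1.5 times. The exceptions were Wisp1 in the difference with PDGF-BB (0.27, adjusted p = 0.061, only the groups compared), Axin2 for PDGF-BB in siRNA cells in 2 settings (1.05 and 1.08, now called), and Wnt5b for PDGF-BB in scramble cells, which is near 0 and was -0.0002 with no filter. With the replicate block, calls over all genes went from 5714 to 5909 for PDGF-BB in scramble cells and from 9394 to 9513 for the siRNA with PDGF-BB, and no call of the 10 genes changed in any comparison. A replicate block in a fit of only the groups compared was added after seeing the data and changed the Axin2 call alone. In 13 of the 33 pairs a library correlated best with its own number. Without 1 library, 613 of 660 values kept direction and side, 31 missed the threshold, 4 passed it and 12 changed sign, none of these 12 past the threshold: the log2 values ranged from -0.15 to 0.45 for Axin2 with the siRNA unstimulated, from -0.01 to 0.65 for Axin2 with PDGF-BB in scramble cells, from -0.03 to 0.48 for Axin2 with TGF-β in siRNA cells, from -0.35 to 0.21 for Wnt4 in the PDGF-BB difference, from -0.03 to 0.11 for Wnt5a with the siRNA and TGF-β, and from -0.17 to 0.22 for Wnt5b with PDGF-BB in scramble cells. The number of the 10 genes called higher in the PDGF-BB difference ranged from 1 to 4 without a library, against 4 with all; 7 of 198 counts moved by more than 1.5 times, all of that result. Where a group is left with 2 libraries, the fit pools the spread over all groups. Axin2 has no value under a mean of at least 1 CPM, and none for TGF-β in scramble cells or the siRNA with TGF-β in fits of only the groups compared, because it is filtered out. Depth limits Axin2, Wnt4 and Wnt5b most.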
